A study of Mus musculus with 6 samples.

Results

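The 41 genes described here encode enzymes that break down amino acids in the liver. The list is one of gene names, set up with earlier results of these data known, and no cut on a measured value selects its members. The genes were matched through their Ensembl IDs to 41 of the 49671 genes in the count table. All 41 passed the filter on low counts that left 13773 genes for testing. They were grouped into serine, tyrosine, histidine, tryptophan, the aspartate and alanine aminotransferases, lysine, branched-chain amino acids, proline, glycine and cysteine. Polyadenylated RNA from bulk liver tissue of 3 wild-type (WT) and 3 p75NTR KO mice was sequenced to ask which liver genes differ without the receptor. The strain is given as B6.1129S4-Ngfr/J -Jackson lab for both groups, the mice were 6 months old and received a standard diet, and the labels name no other treatment. The KO mice are homozygous for a deletion in Ngfr, the gene of p75NTR, a receptor for nerve growth factor and its precursor. The deletion is present in every cell of the body, so liver cells cannot be told apart from other tissues as the site of any effect. The library labels run from 1 to 3 in WT and are 1, 2 and 4 in KO. No label says that each library came from a separate animal, so p-values measure the spread between these 6 libraries.

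The liver is the main organ that removes surplus amino acids. Aminotransferases and dehydratases take off the nitrogen, which periportal hepatocytes pass to the urea cycle, and the carbon skeletons are oxidised or turned into glucose and ketone bodies. Many of these enzymes are known to respond to glucagon, glucocorticoids, feeding and dietary protein. Branched-chain amino acids differ in that much of their transamination takes place outside the liver.

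The total count was 27107209 to 31412855 per library in WT and 29784429 to 32664149 in KO. Ngfr (chr11:95568818-95587735, minus strand, GRCm38) was counted 133, 144 and 78 times in WT and 53, 27 and 47 times in KO. Its log2 fold change was -1.51 (SE 0.34, edgeR adjusted p = 0.257), with an adjusted p of 0.00499 by DESeq2. The allele removes part of the gene, so reads from the rest can still be counted. KO replicate 4 stood apart from the other 5 libraries. It lay at 64.6 on a first principal component that held 39.3% of the variance, where the others lay between -18.4 and -9.28. Its 4 Y-linked marker genes summed to 4712 counts against 0 to 2 in every other library, and Xist was counted 16 times against 6599 to 9554. The labels give no sex, but these are counts of a male in KO replicate 4 and of females in the other 5 libraries. Sex thus differs within the KO group, and its part in the values of KO replicate 4 was not tested. The counts of enzymes and the values of several named enzymes are therefore also given without KO replicate 4. The plot of log2 fold changes shows both fits for all 41. Hepatocyte markers (Alb, Ttr, Apoa1, Apob, Trf) summed to 108593 to 124454 CPM (counts scaled to a common TMM-adjusted library size) in WT and 99625 to 117511 CPM in KO. In bulk tissue, fewer cells of a type and less RNA per cell cannot be told apart.

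Of the 41 enzymes, 35 had a positive log2 fold change (KO against WT) and 6 a negative one, against 49.8% positive among all genes tested. Their median was 0.22, against -0.00 over all genes. None of the 41 passed the test on all 6 libraries, as no gene in the whole table did (edgeR, adjusted p under 0.05, background 0.0%). At an unadjusted p under 0.05, 12 enzymes were higher in KO, where the background was 3.7% of all genes, and 1 was lower, with a background of 3.48%. The 12 were Sds, Sdsl, Tat, Hal, Amdhd1, Afmid, Acmsd, Got1, Gpt, Gpt2, Aass and Prodh, and the lower enzyme was Csad. In 12 enzymes every KO library lay above every WT library, against 6.02% of all genes, and in 0 every KO library lay below, against 6.36%. This second group of 12 holds Fah and Aldh4a1 in place of Tat and Hal.

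DESeq2, the tool the authors used for their own comparison, called 6 enzymes higher in KO on the same 6 libraries, against 0.595% of all genes. These were Sds, Acmsd, Got1, Gpt2, Aass and Prodh. It called 0 lower, against 0.632%. At an unadjusted p under 0.05, DESeq2 gave 13 higher, against 3.86% of all genes, and 1 lower, against 3.14%. Without KO replicate 4, edgeR also called 6 higher, which were Sds, Tat, Acmsd, Got1, Gpt and Prodh, against a background of 0.355%. No enzyme was called lower in that fit, where the background was 0.454%. At an unadjusted p under 0.05, 20 enzymes were higher there, against 5.64%, and 1 was lower, against 6.5%. The median of the 41 was then 0.28, and 37 of 41 fold changes were positive against 49.3% of all genes. Sds, Acmsd, Got1 and Prodh were on both lists of 6. DESeq2 without KO replicate 4 called 11 enzymes higher, against 1.35% of all genes, and 0 lower, against 1.81%. Sdsl, Amdhd1 and Cdo1 were called in that fit and in neither list of 6.

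**Figure D1:**
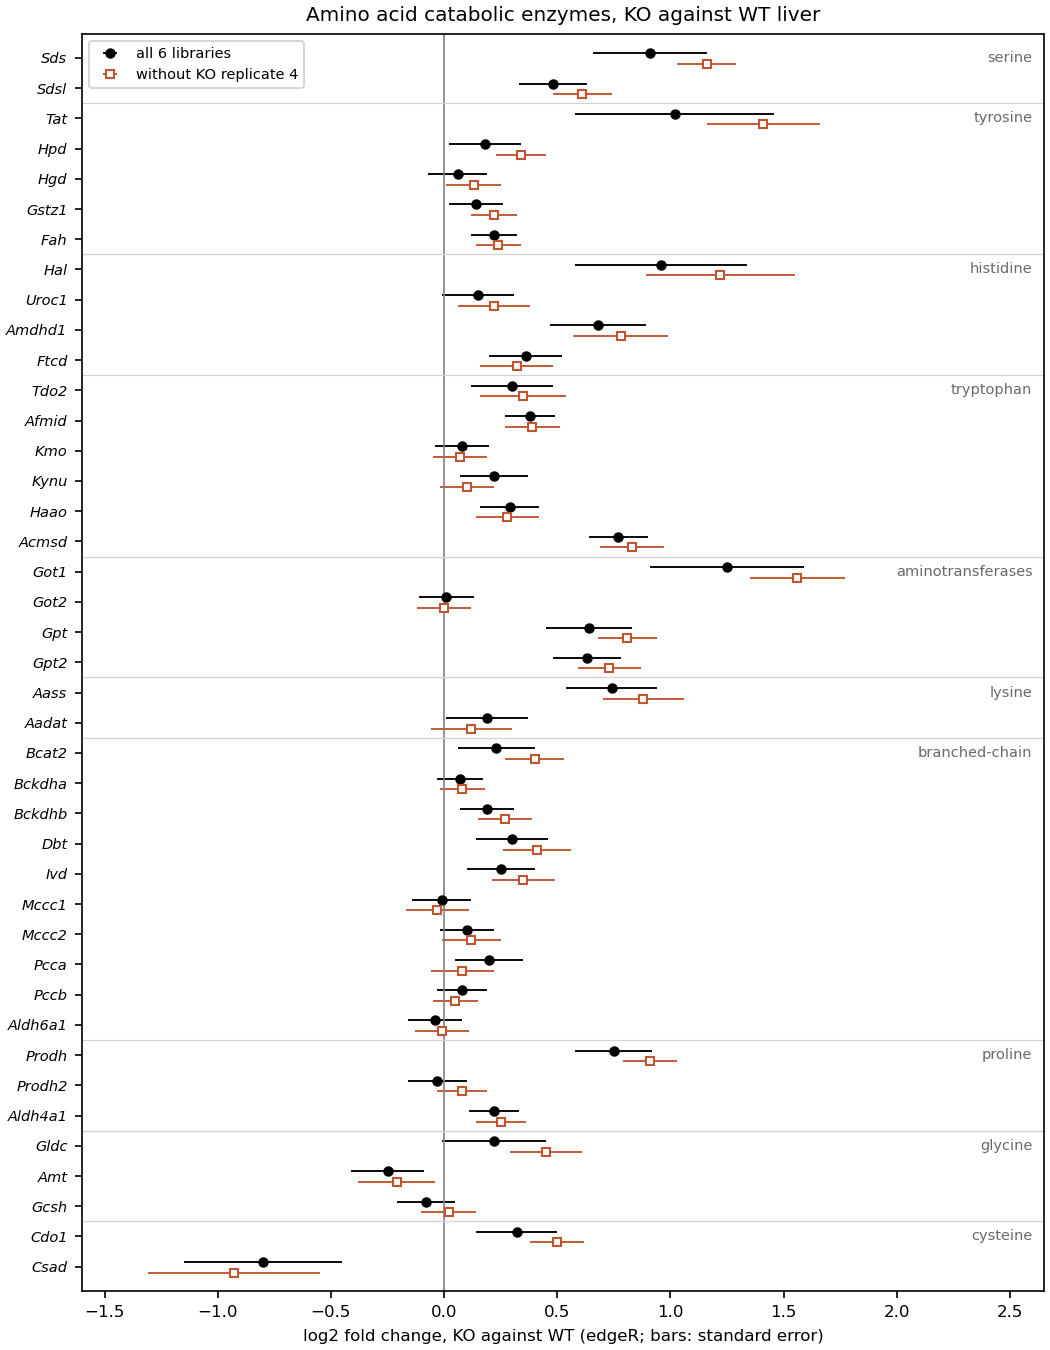
Log2 fold change of each of the 41 enzymes, KO against WT, by amino acid group (x axis, log2 scale; bars are 1 standard error of the edgeR fit). Filled points are all 6 libraries and open squares leave out KO replicate 4; 35 filled points lie above 0, Got1 lies farthest to the right at 1.25 and Csad farthest to the left at -0.80.

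The 250 bases before the start of Tat, Got1 and Prodh, from the RefSeq promoter table (GRCm38.p6), are shown because these genes were among those called higher without KO replicate 4. Each is written in the direction of transcription. Capitals mark CCAAT (the core of NF-Y sites) and AGGTCA (the core of sites for many but not all nuclear receptors), read on both strands.
Tat, chr8:109990186-109990435, plus strand: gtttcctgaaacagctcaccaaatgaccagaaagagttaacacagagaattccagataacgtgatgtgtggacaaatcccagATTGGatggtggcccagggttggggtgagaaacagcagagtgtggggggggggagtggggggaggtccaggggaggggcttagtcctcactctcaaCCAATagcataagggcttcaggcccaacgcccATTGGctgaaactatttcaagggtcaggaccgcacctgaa
Got1, chr19:43524606-43524855, minus strand: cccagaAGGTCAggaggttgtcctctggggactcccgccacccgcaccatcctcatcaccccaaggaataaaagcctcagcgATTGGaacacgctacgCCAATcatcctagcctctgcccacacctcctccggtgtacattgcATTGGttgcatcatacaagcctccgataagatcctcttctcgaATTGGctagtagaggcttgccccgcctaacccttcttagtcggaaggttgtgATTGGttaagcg
Prodh, chr16:18089191-18089440, minus strand: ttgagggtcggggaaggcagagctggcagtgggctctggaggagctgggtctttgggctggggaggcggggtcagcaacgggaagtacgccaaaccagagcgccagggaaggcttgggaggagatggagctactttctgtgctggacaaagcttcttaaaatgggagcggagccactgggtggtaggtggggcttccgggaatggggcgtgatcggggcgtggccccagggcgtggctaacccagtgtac
The Got1 window holds 5 CCAAT motifs and 1 AGGTCA. The Tat window holds 3 CCAAT motifs, the nearest to the start at bases 40 to 36 upstream of it. The Prodh window holds neither motif. Acmsd was called in the fit without KO replicate 4 as well. It has a promoter window, not shown here, with AGGTCA and without CCAAT. Sds and Gpt, the other genes called in that fit, had no window. The RefSeq start of Prodh lies inside the longer GENCODE gene model.

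Promoter windows were found for 35 of the 41 enzymes, which have 41 windows among 32851 in the table. CCAAT was in 23 of the 41 windows (56.1%), against 33.8% of all windows. AGGTCA was in 13 (31.7%) against 14.0%, and TGACG, the core of CREB sites, in 6 (14.6%) against 17.8%. Of 11 other motifs searched on both strands, GGGCGG was in 15 windows (36.6%) against 32.7%, TATAAA in 5 (12.2%) against 12.4%, TTGCNNAA in 4 (9.76%) against 9.56%, TGAAAT in 4 (9.76%) against 12.7% and AGAACA in 3 (7.32%) against 16.1%. CAAAGTCCA was in 1 window (2.44%) against 0.384% and CACGTG in 1 (2.44%) against 6.02%. TGACGTCA, which contains TGACG, was in 0 against 1.55%, TGTTTAC in 0 against 3.17%, the NRF1 motif in 0 against 0.782% and the HNF1 motif in 0 against 0.00913%. These are counts of letters in short windows and were not tested.

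Both serine dehydratases were higher in every KO library than in any WT library. Values are given in the order of replicates 1, 2 and 3 for WT and 1, 2 and 4 for KO throughout. Sds, serine dehydratase, which converts serine to pyruvate and ammonia, was at 199, 212 and 229 CPM in WT and 533, 419 and 249 CPM in KO. The KO mean was 1.87 times the WT mean, with a log2 fold change of 0.91 (SE 0.25, edgeR adjusted p = 0.397), and DESeq2 gave an adjusted p of 0.0104. KO replicate 4 lay just above the highest WT library, and without it the log2 fold change was 1.16 (SE 0.13, edgeR adjusted p = 0.0113). Sdsl, the serine dehydratase-like gene, was at 13.6, 14.7 and 15.1 CPM in WT and 23.5, 20.6 and 16.3 CPM in KO, and its log2 fold change was 0.48 (SE 0.15, edgeR adjusted p = 0.528). The pair lies head to head on chromosome 5, with Sdsl at chr5:120458186-120472810, minus strand and Sds at chr5:120476526-120483932, plus strand, and the starts are 3716 bases apart. Per kilobase of exon, the mean WT level of Sds was 126 CPM and that of Sdsl 9.67 CPM. The ratio of Sds to Sdsl CPM was 14.5 to 15.1 in WT and 22.7, 20.3 and 15.3 in KO. Sds shares 360 exon bases with Plbd2 on the other strand, and no source used here says whether featureCounts used strand.

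Among the 5 enzymes of tyrosine breakdown, Tat was high in 2 KO libraries and the log2 fold changes of the other 4 were 0.06 to 0.22. Tat, tyrosine aminotransferase, the rate-limiting enzyme of the pathway and a classic glucocorticoid-induced gene, was at 981, 1152 and 569.8 CPM in WT and 2185, 2586 and 698 CPM in KO. KO replicate 4 lay within the WT range and the other KO libraries above it, so the groups overlapped. The mean was 901 ± 299 CPM in WT and 1823 ± 995 CPM in KO (SD, n = 3 each), and the log2 fold change was 1.02 (SE 0.44, edgeR adjusted p = 0.696), with an adjusted p of 0.723 by DESeq2. Without KO replicate 4 it was 1.41 (SE 0.25, edgeR adjusted p = 0.0496). Hpd, 4-hydroxyphenylpyruvate dioxygenase, which takes the product of Tat, was at 1985, 2051 and 2194 CPM in WT and 2778, 2453 and 1829 CPM in KO, with KO replicate 4 the lowest of the 6. Its log2 fold change was 0.18 (SE 0.16, edgeR adjusted p = 0.904). Hgd, Gstz1 and Fah, which carry homogentisate to fumarate and acetoacetate, had log2 fold changes of 0.06, 0.14 and 0.22. Fah alone of these 3 had every KO library above every WT library, at 582, 551 and 582 CPM in WT and 699.5, 645 and 652 CPM in KO.

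In histidine breakdown, Hal and Amdhd1 had the largest log2 fold changes. Hal, histidine ammonia-lyase, which opens the pathway by forming urocanate, was at 228, 237 and 433 CPM in WT and 937, 457 and 358 CPM in KO. WT replicate 3 lay between KO replicates 2 and 4, so the groups overlapped. The log2 fold change was 0.96 (SE 0.38, edgeR adjusted p = 0.663). It was 0.45 without KO replicate 1, 1.33 without WT replicate 3 and 1.22 (SE 0.33, edgeR adjusted p = 0.166) without KO replicate 4. Amdhd1, imidazolonepropionase, was at 169, 148 and 232 CPM in WT and 375, 250.4 and 256 CPM in KO, with the KO libraries above the WT libraries and WT replicate 3 close below them. Its log2 fold change was 0.68 (SE 0.21, edgeR adjusted p = 0.518). Uroc1, urocanate hydratase, and Ftcd, which passes the formimino group to folate, had log2 fold changes of 0.15 and 0.36. Hal (chr10:93488768-93519304, plus strand) and Amdhd1 (chr10:93523338-93540033, minus strand) lie tail to tail, with 4033 bases between them. WT replicate 3 was the highest WT library for all 4 histidine enzymes.

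Acmsd had the smallest p of all 41 enzymes. It encodes aminocarboxymuconate semialdehyde decarboxylase, which turns an intermediate of tryptophan breakdown away from NAD synthesis. It was at 9.48, 11.3 and 9.85 CPM in WT and 18.1, 18.1 and 16.2 CPM in KO, so the 3 KO libraries lay close together and well above WT. The mean was 10.2 ± 0.948 CPM in WT and 17.5 ± 1.09 CPM in KO (SD, n = 3 each), and the log2 fold change was 0.77 (SE 0.13, edgeR adjusted p = 0.146), with an adjusted p of 0.000941 by DESeq2. Leaving out KO replicate 4 left it at 0.83 (SE 0.14, edgeR adjusted p = 0.0465). Acmsd was also the lowest of the 41 in level per kilobase of exon, at 3.61 CPM in WT. Tdo2, tryptophan 2,3-dioxygenase, the rate-limiting enzyme of the pathway in liver, was at 1303, 1708 and 1051 CPM in WT and 1866, 1576 and 1570.2 CPM in KO, and its log2 fold change was 0.30 (SE 0.18, edgeR adjusted p = 0.834). The highest of the KO values was KO replicate 1, and WT replicate 2 exceeded the other KO libraries. Afmid, kynurenine formamidase, was at 28.5, 27.9 and 32.8 CPM in WT and 41.3, 36.6 and 38.6 CPM in KO, with no overlap between groups. Its log2 fold change was 0.38 (SE 0.11, edgeR adjusted p = 0.468). Afmid shares exon bases with Tk1 on the other strand. Kmo, Kynu and Haao, which carry kynurenine toward quinolinate, had log2 fold changes of 0.08, 0.22 and 0.29, none past an unadjusted p of 0.05.

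Got1 had the largest log2 fold change of the 41 enzymes, and 3 of the 4 aspartate and alanine aminotransferases had KO libraries above all WT libraries. Got1, the cytosolic aspartate aminotransferase, part of the malate-aspartate shuttle, was at 192, 223 and 252 CPM in WT and 826, 481 and 275 CPM in KO. KO replicate 1 was far above the others and KO replicate 4 close to WT replicate 3. The KO mean was 2.37 times the WT mean, with a log2 fold change of 1.25 (SE 0.34, edgeR adjusted p = 0.412) and an adjusted p of 0.00333 by DESeq2. It was 0.78 without KO replicate 1 and 1.56 (SE 0.21, edgeR adjusted p = 0.0209) without KO replicate 4. Got2, the mitochondrial enzyme for the same reaction, was at 277, 268 and 299 CPM in WT and 306, 256 and 291 CPM in KO, and its log2 fold change was 0.01 (SE 0.12, edgeR adjusted p = 0.996). The ratio of Got1 to Got2 CPM was 0.693 to 0.844 in WT and 2.70, 1.88 and 0.947 in KO, a difference of 1.10 on the log2 scale.

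Gpt and Gpt2, the cytosolic and mitochondrial alanine aminotransferases, which link alanine to pyruvate, had nearly equal fold changes. Gpt was at 252, 239.6 and 273 CPM in WT and 503, 388 and 296 CPM in KO, and its log2 fold change was 0.64 (SE 0.19, edgeR adjusted p = 0.468). Without KO replicate 4 it was 0.81 (SE 0.13, edgeR adjusted p = 0.0343). Gpt2 was at 512, 523 and 390.5 CPM in WT and 791, 784 and 633 CPM in KO, with a log2 fold change of 0.63 (SE 0.15, edgeR adjusted p = 0.298) and an adjusted p of 0.0135 by DESeq2. The Gpt to Gpt2 ratio differed by -0.03 on the log2 scale between KO and WT. Ratios within 4 pairs of related enzymes (Got1 and Got2, Gpt and Gpt2, Sds and Sdsl, Prodh and Prodh2) were compared between groups by a two-sided exact permutation test. The p was 0.1 for every pair except Gpt and Gpt2 (p = 0.9), which is 0.133 after adjustment over the 4 pairs, and 0.1 is the smallest p that 3 against 3 libraries can give in this exact test.

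**Figure D2:**
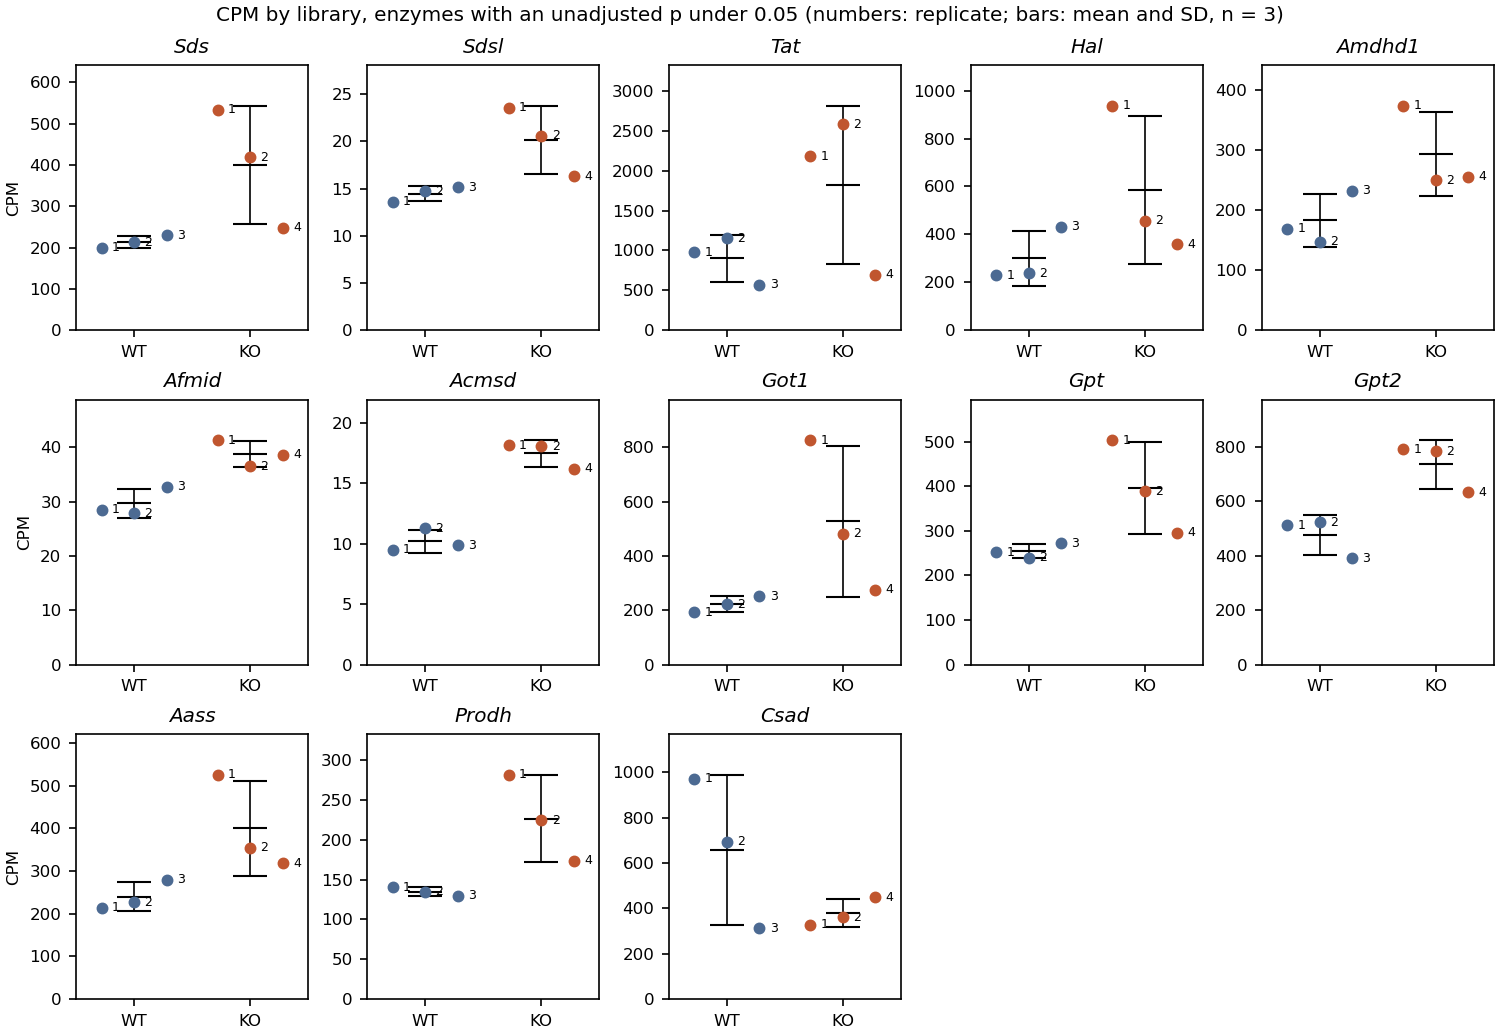
CPM (y axis, from 0) in each WT and KO library for the 13 enzymes with an unadjusted p under 0.05 by edgeR; points are libraries with their replicate number, bars the mean and SD of 3. KO replicate 4 lies nearest to WT in Sds, Sdsl, Got1, Gpt, Gpt2, Aass and Prodh, inside the WT range in Tat and Hal, and the 3 KO libraries lie close together in Acmsd.

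In lysine breakdown, Aass had the larger log2 fold change of the pair measured. It encodes the mitochondrial aminoadipate-semialdehyde synthase, which carries out the opening steps of the saccharopine pathway. Aass was at 214, 227 and 279.6 CPM in WT and 526, 355 and 319 CPM in KO, with no overlap, and its log2 fold change was 0.74 (SE 0.20, edgeR adjusted p = 0.414), with an adjusted p of 0.0231 by DESeq2 and 0.88 (SE 0.18, edgeR adjusted p = 0.0715) without KO replicate 4. Aadat, an aminotransferase of the next part of the pathway that also acts on kynurenine, had a log2 fold change of 0.19, and its groups overlapped.

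Prodh had the largest log2 fold change of the 3 enzymes of proline breakdown. Prodh, the mitochondrial proline dehydrogenase, was at 140.2, 135 and 129 CPM in WT and 281, 224 and 174 CPM in KO. All 3 KO libraries lay above the narrow WT range, KO replicate 4 closest to it. The KO mean was 1.68 times the WT mean, with a log2 fold change of 0.75 (SE 0.17, edgeR adjusted p = 0.258) and an adjusted p of 0.00454 by DESeq2, and without KO replicate 4 it was 0.91 (SE 0.12, edgeR adjusted p = 0.0209). Prodh2, which oxidises hydroxyproline, was at 215, 209 and 212 CPM in WT and 239.7, 207 and 174 CPM in KO, and its log2 fold change was -0.03 (SE 0.13, edgeR adjusted p = 0.986). The Prodh to Prodh2 ratio was 0.610 to 0.652 in WT and 1.17, 1.08 and 0.996 in KO, a difference of 0.77 on the log2 scale. Aldh4a1, which completes the conversion of proline to glutamate, was at 229, 220.5 and 258 CPM in WT and 289.8, 269 and 266 CPM in KO, with no overlap between groups and a log2 fold change of 0.22 (SE 0.11, edgeR adjusted p = 0.787).

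The 10 enzymes of branched-chain amino acid breakdown lay close to 0 in the fit of all 6 libraries. Their log2 fold changes were between -0.04 and 0.30 with a median of 0.14 and standard errors of 0.10 to 0.17, and 0 had an unadjusted p under 0.05. Dbt, the acyltransferase subunit of the branched-chain ketoacid dehydrogenase, had the largest change and was at 71.5, 73.7 and 89.1 CPM in WT and 119, 87.9 and 82.3 CPM in KO, a log2 fold change of 0.30 (SE 0.16, edgeR adjusted p = 0.801). WT replicate 3 was above KO replicates 2 and 4. Aldh6a1, methylmalonate semialdehyde dehydrogenase of valine breakdown, had the highest mean CPM of the group (not scaled by length), at 481, 504 and 552 CPM in WT and 556, 456 and 478 CPM in KO, and its log2 fold change was -0.04 (SE 0.12, edgeR adjusted p = 0.977). Bcat2, the mitochondrial aminotransferase, Bckdha and Bckdhb, the other subunits of that dehydrogenase, Ivd of leucine breakdown, the carboxylase pair Mccc1 and Mccc2 and the propionyl-CoA carboxylase pair Pcca and Pccb lay between -0.01 and 0.25. Without KO replicate 4 the median of the 10 was 0.10. At an unadjusted p under 0.05, 4 were then higher, against 5.64% of all genes, and 0 lower, against 6.5%. These 4 were Bcat2, Bckdhb, Dbt and Ivd, with log2 fold changes of 0.40, 0.27, 0.41 and 0.35.

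The enzymes of glycine and cysteine breakdown held 3 of the 6 negative values. Gldc, the decarboxylase of the glycine cleavage system, was at 110.0, 120.2 and 155 CPM in WT and 191, 158 and 101 CPM in KO, with KO replicate 4 the lowest of the 6 libraries, and its log2 fold change was 0.22 (SE 0.23, edgeR adjusted p = 0.924). Amt, the aminomethyltransferase of that system, was at 54.7, 55.7 and 75.9 CPM in WT and 60.5, 46.3 and 49.9 CPM in KO, a log2 fold change of -0.25 (SE 0.16, edgeR adjusted p = 0.863), and Gcsh, the lipoyl carrier, had -0.08. Cdo1, cysteine dioxygenase, which commits cysteine to taurine and sulfate, had the highest WT level per kilobase of exon of the 41, at 1096 CPM. It was at 1602, 1889.8 and 1915 CPM in WT and 2486, 2597 and 1650.0 CPM in KO, with KO replicate 4 inside the WT range, and its log2 fold change was 0.32 (SE 0.18, edgeR adjusted p = 0.815). Csad, cysteine sulfinic acid decarboxylase, the next enzyme on the way to taurine, was at 971, 695 and 313 CPM in WT and 328, 361 and 449.8 CPM in KO. WT replicates 1 and 2 were high, and WT replicate 3 was below all KO libraries, so the groups overlapped. The mean was 659.8 ± 331 CPM in WT and 379.6 ± 62.9 CPM in KO (SD, n = 3 each), and the log2 fold change was -0.80 (SE 0.35, edgeR adjusted p = 0.697). It was -0.40 without WT replicate 1, -1.13 without WT replicate 3 and -0.93 without KO replicate 4.

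**Figure D3:**
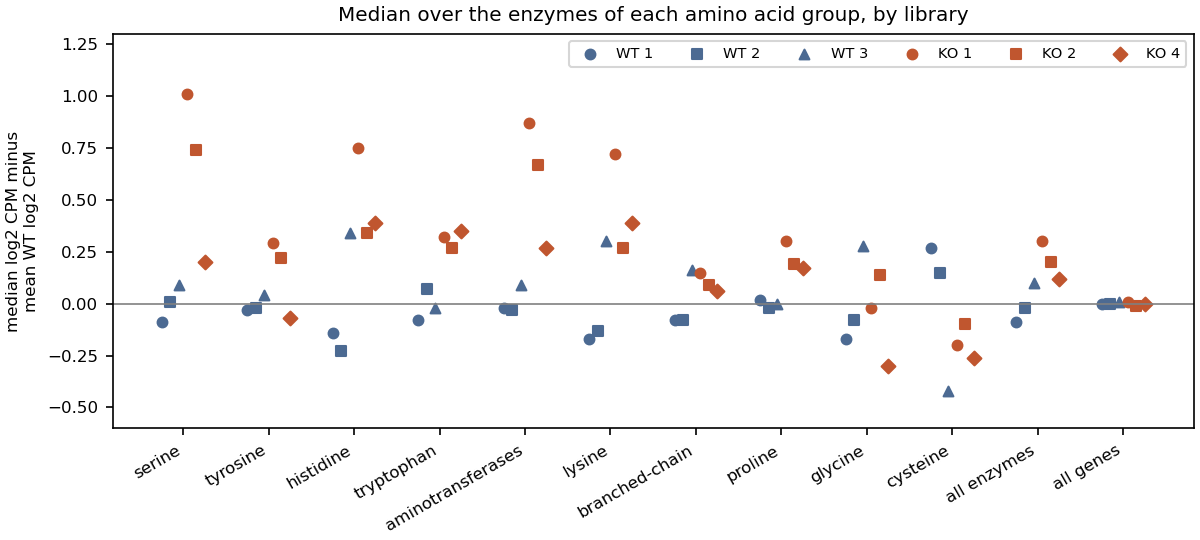
Median over the enzymes of each amino acid group of log2 CPM minus the mean WT log2 CPM (y axis), for each of the 6 libraries. Over all 41 enzymes KO replicates 1, 2 and 4 lie at 0.30, 0.20 and 0.12 and WT at -0.09, -0.02 and 0.10, while all genes lie near 0 in every library.

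The 3 KO libraries differed in how far the enzymes lay from WT. KO replicate 1 was above every WT library in 31 of the 41 enzymes, against 27.2% of all genes. KO replicate 2 was above in 24, against 27.2%, and KO replicate 4 in 18, against 28.4%. KO replicate 1 was the highest KO library for 27 enzymes, against 30.1% of all genes, and KO replicate 4 the lowest for 24, against 38.7%. WT replicate 3 was the highest WT library for 28 of them, against 39.8% of all genes. The 41 enzymes together took 1.46% to 1.53% of the TMM-scaled library size in WT, 2.15% in KO replicate 1, 1.93% in KO replicate 2 and 1.51% in KO replicate 4. The summed level was thus clearly above WT in KO replicates 1 and 2 and within the WT range in KO replicate 4.

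**Figure D4:**
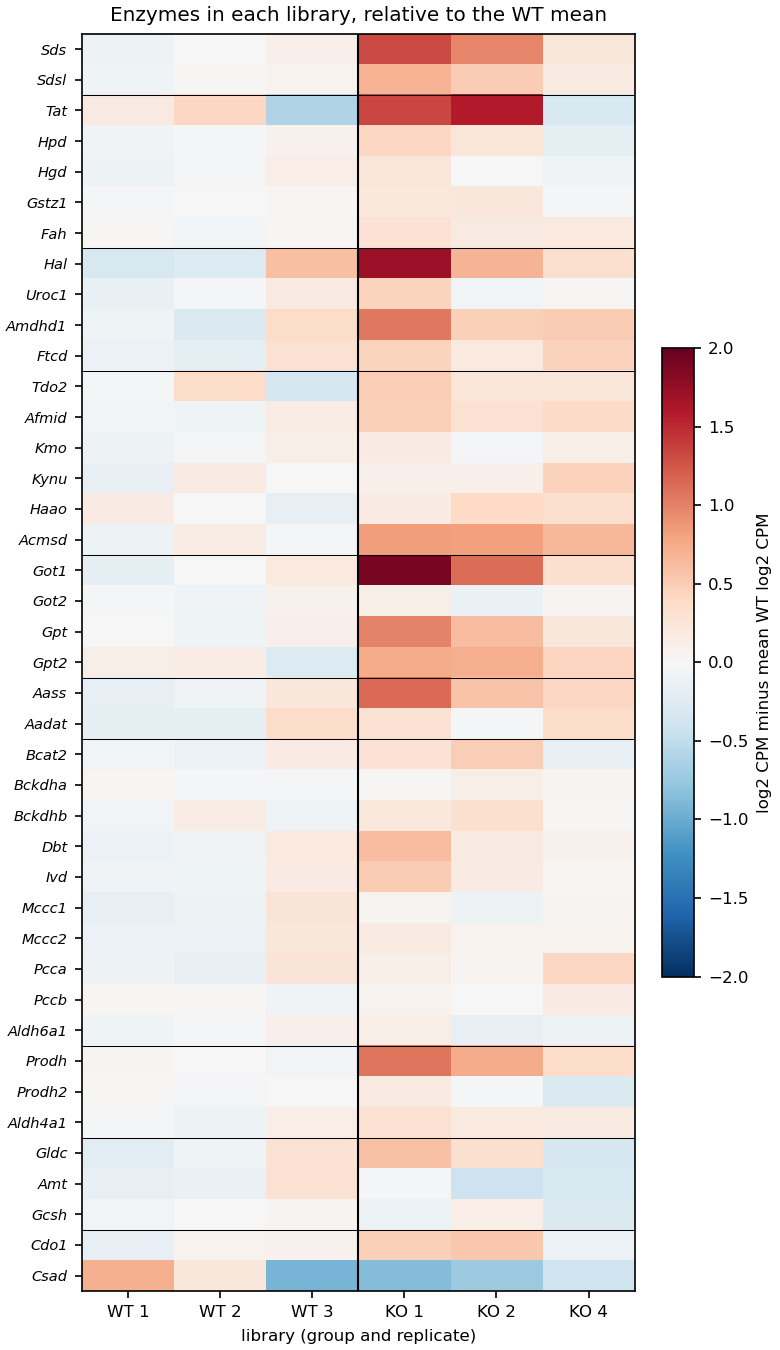
Log2 CPM minus the mean WT log2 CPM of each of the 41 enzymes (rows, ordered by amino acid group) in each library (columns); red is higher and blue lower than the WT mean. The red rows Sds, Tat, Hal, Got1, Aass and Prodh are darkest in KO replicate 1 or 2, and Csad is blue in WT replicate 3 and in all KO libraries.

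Of the 20 enzymes that act in the cytosol, 19 lay above 0 in log2 fold change. Their median was 0.34. At an unadjusted p under 0.05, 9 were higher, against 3.7% of all genes, and 1 (Csad) was lower, against 3.48%. Of the 21 in mitochondria, 16 were positive, with a median of 0.19. At that p, 3 of them were higher and 0 lower, against the same shares of all genes. This division was made after the values were seen and is a description. The 20 enzymes outside the rule for named genes, Fah, Got2 and Prodh2 among them, had log2 fold changes of -0.08 to 0.36. Their median was 0.15 and 17 were positive. The rule takes out every enzyme with an unadjusted p under 0.05 by edgeR and the largest change of each group. The narrow range of the 20 therefore follows in part from the rule. The counts behind the enzymes ranged from 272 to 87723 per library. Of the 41 genes, 12 share exon bases with another annotated gene, so their counts are less certain. Bcat2, counted 711 to 1242 times per library, shares 622 exon bases with 0610005C13Rik on the other strand. That gene was counted up to 7313 times.

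Other genes of the same pathways had a smaller median. Of 55 further enzymes of amino acid breakdown, 52 were tested. Of these 32 were positive and 20 negative, with a median of 0.07. At an unadjusted p under 0.05, 8 were higher, against 3.7% of all genes, and 2 lower, against 3.48%, and edgeR called 0 while DESeq2 called 1, Gls2. Gls2, the liver glutaminase, was at 399.9, 343 and 383 CPM in WT and 682, 512 and 471 CPM in KO, a log2 fold change of 0.57 (SE 0.16, edgeR adjusted p = 0.421), and DESeq2 gave an adjusted p of 0.0472. Hsd17b10, a mitochondrial dehydrogenase of isoleucine breakdown, was at 110.3, 118 and 108 CPM in WT and 151, 155 and 139.8 CPM in KO, a log2 fold change of 0.41 (SE 0.11, edgeR adjusted p = 0.345). Ethe1 and Sqor, which oxidise sulfide in mitochondria, had log2 fold changes of 0.52 (SE 0.14, edgeR adjusted p = 0.397) and 0.35 (SE 0.11, edgeR adjusted p = 0.518). Agxt2, Hoga1 and Qprt, which act on glyoxylate, hydroxyproline and quinolinate, had 0.45 (SE 0.15, edgeR adjusted p = 0.551), 0.43 (SE 0.14, edgeR adjusted p = 0.554) and 0.43 (SE 0.15, edgeR adjusted p = 0.555). The 7 enzymes with values here were taken by smallest p. In each the KO libraries lay above the WT libraries, which that choice favours. Over the 52 tested, the KO libraries lay above WT in 8, against 6.02% of all genes, and below WT in 4, against 6.36%. These 4 were Shmt1, Dmgdh, Bckdk and Fmo1, which were named after their values were seen. Shmt1, which interconverts serine and glycine, had a log2 fold change of -0.31 (SE 0.12, edgeR adjusted p = 0.639). Bckdk, the kinase that inhibits the branched-chain ketoacid dehydrogenase, had -0.31 (SE 0.13, edgeR adjusted p = 0.690). Both were lower at an unadjusted p under 0.05.

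Of 10 regulators of hepatic amino acid metabolism, 6 had a positive log2 fold change and the median was 0.04. At an unadjusted p under 0.05, 0 were lower, against 3.48% of all genes, and 1 was higher, against 3.7%. This was Foxo1, a forkhead factor that insulin keeps out of the nucleus, at 53.0, 53.5 and 43.7 CPM in WT and 77.3, 84.7 and 63.8 CPM in KO. Its groups did not overlap, and its log2 fold change was 0.59 (SE 0.14, edgeR adjusted p = 0.282), with an adjusted p of 0.0282 by DESeq2 and 0.70 (SE 0.13, edgeR adjusted p = 0.0496) without KO replicate 4. In that fit 4 regulators were higher at an unadjusted p under 0.05, against 5.64% of all genes, and 2 lower, against 6.5%. Klf15 was called higher too, which made 2 regulators called, against 0.355% of all genes. Log2 fold changes of the 10 ran from -0.30 to 0.62 on all 6 libraries and from -0.53 to 0.88 without KO replicate 4. Klf15, a glucocorticoid-induced factor known to control amino acid breakdown, and Ppara were named after their values were seen. Neither these nor Foxo1 had the highest log2 fold change of the 10 in either fit. Klf15 was at 177, 179 and 156 CPM in WT and 274, 257 and 145 CPM in KO, with KO replicate 4 below every WT library, and its log2 fold change was 0.40 (SE 0.22, edgeR adjusted p = 0.807) on all 6 libraries and 0.64 (SE 0.11, edgeR adjusted p = 0.0479) without KO replicate 4. Ppara, a nuclear receptor of the fasting response, had -0.30 (SE 0.19, edgeR adjusted p = 0.851) on all 6 libraries and -0.53 (SE 0.14, edgeR adjusted p = 0.153) without KO replicate 4.

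Markers of liver zones also differed in part between the groups. Periportal hepatocytes, which lie near the incoming blood, carry most urea synthesis and much amino acid breakdown. The periportal list (Cps1, Ass1, Cyp2f2, Pck1, Gls2) summed to 6443 to 7717 CPM in WT and 9746 to 12565 CPM in KO. At an unadjusted p under 0.05, 3 of 5 were higher, against 3.7% of all genes. These were Cps1, Ass1 and Gls2, the last of which is also counted among the related enzymes above. Pck1 had a log2 fold change of 0.39 (SE 0.22, edgeR adjusted p = 0.823), and its groups overlapped. Cps1, which makes carbamoyl phosphate for urea, was at 2098, 2258 and 2311 CPM in WT and 5037, 3166 and 3902 CPM in KO, and its log2 fold change was 0.86 (SE 0.17, edgeR adjusted p = 0.198). Ass1, argininosuccinate synthase, was at 1127, 1028 and 863 CPM in WT and 2379.8, 1794 and 1480.1 CPM in KO, with a log2 fold change of 0.91 (SE 0.19, edgeR adjusted p = 0.207). Cyp2f2 was at 530.5, 598 and 800.0 CPM in WT and 461, 437 and 1225 CPM in KO, with KO replicates 1 and 2 below every WT library. The pericentral list (Glul, Cyp2e1, Cyp1a2, Lgr5, Slc1a2) summed to 10420 to 11209 CPM in WT and 9655 to 11628 CPM in KO. Of its 5 genes, 2 were lower at an unadjusted p under 0.05, against 3.48% of all genes. These were Glul at -0.32 (SE 0.11, edgeR adjusted p = 0.569) and Lgr5 at -0.78 (SE 0.16, edgeR adjusted p = 0.207). The neutrophil list summed to 2.02 to 3.62 CPM in WT and 4.61 to 14.5 CPM in KO, highest in KO replicate 1. Of its 5 genes only S100a8 and S100a9 passed the filter on low counts. Both were higher at an unadjusted p under 0.05, against 3.7% of all genes. S100a8 had a log2 fold change of 1.39 (SE 0.57, edgeR adjusted p = 0.690) and S100a9 of 1.66 (SE 0.46, edgeR adjusted p = 0.414). Mpo and Ly6g were at or near 0 in every library. The Kupffer cell list summed to 207 to 426 CPM in WT and 211 to 355 CPM in KO. The stellate cell list summed to 229 to 318 CPM in WT and 340 to 368 CPM in KO. The part of these cell types and zones in the enzyme values was not tested.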

How the data were processed

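Liver RNA was measured in 6 RNA-seq libraries, 3 WT and 3 KO. The authors deposited whole-number counts per gene, not normalized. Their methods and processing notes name Trimmomatic for trimming, STAR 2.5.0c for alignment to GRCm38.p5, and featureCounts for counting. They compared KO with WT by DESeq2, which is among the alternatives here. Symbols, strands and positions (GRCm38) were matched by Ensembl ID in a later GENCODE release, which held 49412 of the 49671 genes.

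Counts were tested with edgeR 4.0.16 in R 4.3.3 (filterByExpr with defaults, TMM, glmQLFit and glmQLFTest), two-sided, and p-values were adjusted by the Benjamini-Hochberg method over the 13773 genes tested. Genes with an adjusted p under 0.05 are called. CPM is the count scaled to a common TMM-adjusted library size, and SE is the standard error of a log2 fold change. DESeq2 1.42.0, limma-voom (limma 3.58.1), other scalings and filters and left-out libraries were alternatives. No 2 libraries held counts that matched within counting error (chi-square for each degree of freedom, 16.8 to 172).

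The members, lists and tests were chosen with earlier results of these data known. Named with full values were enzymes with an unadjusted p under 0.05 by edgeR or called by DESeq2 or without KO replicate 4, in each amino acid group the enzyme with the highest mean CPM and that with the largest change, Ngfr, and up to 8 related genes with the smallest p. Fah, Got2 and Prodh2 were given values as well, after these were seen, as were the marker genes described.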

Additional observations from a re-analysis of the deposited data

How the results depend on the processing

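The median log2 fold change of the 41 enzymes was positive under all 16 alternatives, between 0.19 and 0.32. The median of the glycine enzymes and the value of Aldh6a1 kept their sign in 12 of 16. Over all genes, edgeR called 0 higher and 0 lower (988 at an unadjusted p under 0.05, DESeq2 964 and limma-voom 972), DESeq2 called 82 and 87, limma-voom 1 and 4, no filter on low counts 69 and 67, and robust dispersions 3 and 6. Leaving out 1 library gave 0 to 50 higher and 0 to 64 lower, where only the fit without KO replicate 4 made calls. DESeq2 without KO replicate 4 called 191 and 255, and WT replicates 1 and 2 against KO replicates 1 and 2 gave 131 and 157. Of the enzymes, 6 were called higher by DESeq2, 4 with no filter, 0 to 6 with 1 library left out, 11 by DESeq2 without KO replicate 4, and 11 higher and 1 lower in the comparison of replicates 1 and 2. Of the 62 related enzymes and regulators tested, 2 were called higher by DESeq2, 0 to 2 with 1 library left out, 5 higher and 1 lower by DESeq2 without KO replicate 4, and 3 higher and 1 lower in the comparison of replicates 1 and 2. The cause of these differences was not tested.

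Numbers 1 and 2 are used in WT and in KO, but no label pairs them. Deviations from the group means correlated at -0.124 for number 1 and 0.0259 for number 2. With the replicate number as a block, 220 genes were called higher and 248 lower, among them 13 enzymes higher and 1 lower (Csad) and 6 related genes higher and 1 lower. WT replicate 3 and KO replicate 4 share no number with another library, so this block compares the same libraries as replicates 1 and 2 alone.

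With 3 libraries per group, small differences were not detectable. The standard errors of the 41 enzymes were 0.10 to 0.44 on the log2 scale.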
